A study of Mus musculus with 30 samples.

Results

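The clustered protocadherins are cell-surface adhesion proteins of the cadherin superfamily, encoded by 3 neighbouring gene arrays, alpha, beta and gamma. All genes whose symbol named them as an alpha, beta or gamma member were taken, which gave 58 of the 48440 genes counted: 14 alpha, 22 beta and 22 gamma members. On the GRCm38 build they lie on the plus strand of chromosome 18, the alpha array from 36930184 to 37187661, the beta array from 37264938 to 37524479 and the gamma array from 37661793 to 37841873. The gamma members comprise 12 of type A, 7 of type B and 3 of type C, and with Pcdhac1 and Pcdhac2 of the alpha array the family has 5 C-type members. The questions were which members each tumor line expressed and how constant that choice was among tumors of a line.

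Each alpha and gamma member has its own promoter and its own large variable exon, which encodes the extracellular domains and is spliced to constant exons shared by the whole array, whereas beta members are encoded by a single exon and lack the constant part. In neurons, each cell transcribes a small set of members, promoters being chosen at random and silenced or opened through DNA methylation, CTCF and cohesin, and the C-type members are controlled apart from the others. The proteins pair with identical members on neighbouring cells, so that the set on a cell acts as its label in self-recognition.

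RNA was sequenced from 30 fibrosarcoma tumors grown in mice from 5 primary cell lines. Each line had been derived from 1 tumor induced by the carcinogen methylcholanthrene (MCA). The study transplanted such lines into C57BL/6 mice, with or without an antibody that depletes NK1.1+ cells. Which hosts gave the sequenced tumors is not stated. MCA943 gave 4 tumors, MCA948 gave 8, MCA969 gave 8, MCA970 gave 6 and MCA972 gave 4. The labels give the mouse strain Ncr1Cre for the MCA943 tumors and Ncr1Cre R26DTA, a strain whose NKp46+ innate lymphoid cells are deleted, for all tumors of the other lines; they do not say whether this names the mouse in which a line arose or the mouse that carried the transplant. Tumor titles carry a code such as W-1D or a-2G, whose letters W and a are not explained and were mapped to no condition, and the design text speaks of wild-type and NK cell-deficient mice. MCA943 and MCA969 were non-sensitive to NK1.1+ cells in the study and MCA948, MCA970 and MCA972 were sensitive. The labels of MCA969 W-1D and W-2D give the opposite class, and both tumors were kept with their line. Leukocytes had been removed with CD45 beads before RNA was prepared, so the libraries still held tumor cells with endothelial and other stromal cells.

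Libraries held 27745104 to 46537062 gene counts (median 35039383 over the 30 tumors). Levels are given as CPM, counts per 1000000 counts after TMM scaling, and a member was taken as expressed at 1 CPM or more. A count of 3, the limit that a count of 0 allows, corresponded to 0.0602 to 0.113 CPM, which covers counting error only. All 7 fibroblast markers examined, collagens among them, were detected in every line, with summed levels of 5080 to 56411 CPM. MCA969 W-2D stood apart, with the lowest mean correlation with its own line over all genes tested (0.971) and the lowest fibroblast marker sum. In MCA970, the leukocyte marker sum was 290 CPM in W-1D and 173 CPM in W-R, against 21.9 CPM in the lowest tumor of that line.

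**Figure D1:**
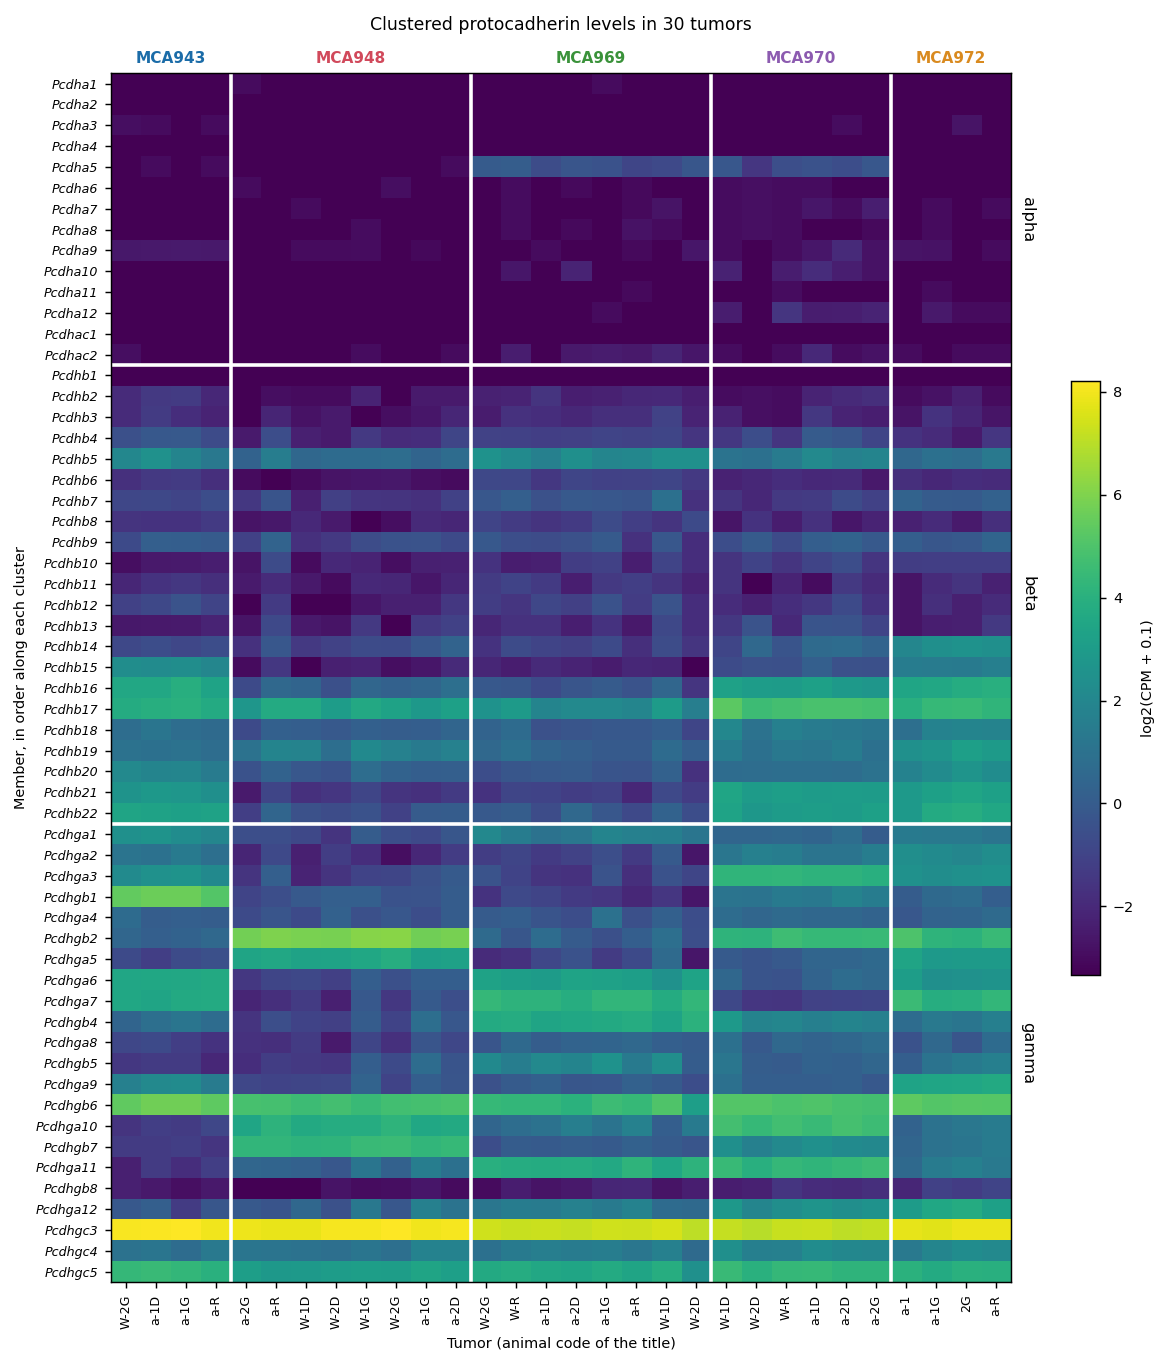
Level of each of the 58 members (rows, in order along each array) in each of the 30 tumors (columns, grouped by line), as log2(CPM + 0.1), from dark (not detected) to yellow. Alpha members and Pcdhb1 to Pcdhb13 are mostly dark, Pcdhgc3 is bright in all tumors, and the pattern of the gamma A and B members changes at the borders between lines.

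Every line expressed beta and gamma members and no line expressed an alpha member at 1 CPM in any tumor. In every one of its tumors, MCA943 expressed 22 members (9 beta and 13 gamma), MCA948 expressed 11 (3 and 8), MCA969 expressed 13 (2 and 11), MCA970 expressed 22 (8 and 14) and MCA972 expressed 27 (10 and 17). This rule is stricter for the lines with 8 tumors than for those with 4. In some but not all of its tumors, MCA943 expressed 3 more members, MCA948 15, MCA969 13, MCA970 9 and MCA972 6. Only 6 members were expressed in all tumors of all 5 lines, namely Pcdhb5, Pcdhb17, Pcdhgb6, Pcdhgc3, Pcdhgc4 and Pcdhgc5. A further 13 were expressed in all tumors of exactly 3 lines. In contrast, 25 members stayed below 1 CPM in all 30 tumors, the 14 alpha members, 10 beta members and Pcdhgb8. In bulk tissue, expression of a member by fewer cells and less of its RNA per cell cannot be told apart, so these sets describe tumors and not single cells.

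At 5 CPM, a level chosen after the data were seen, the lines were further apart. MCA948 tumors then shared Pcdhb17, Pcdhgb2, Pcdhga5, Pcdhgb6, Pcdhga10, Pcdhgb7, Pcdhgc3 and Pcdhgc5, and all 8 tumors had the same set. MCA969 tumors shared Pcdhga6, Pcdhga7, Pcdhgb4, Pcdhgb6, Pcdhga11, Pcdhgc3 and Pcdhgc5, with no beta member. MCA943 tumors shared 10 members, of which Pcdhgb1, Pcdhga6, Pcdhga7 and Pcdhgb6 were of type A or B. MCA970 tumors shared 11, with Pcdhga3, Pcdhgb2, Pcdhgb6, Pcdhga10 and Pcdhga11 as their A and B members, and MCA972 tumors shared 14, with Pcdhgb2, Pcdhga5, Pcdhga6, Pcdhga7, Pcdhga9, Pcdhgb6 and Pcdhga12. At this level 7 members were shared by the tumors of a single line: Pcdhb19, Pcdhga9 and Pcdhga12 in MCA972, Pcdhga3 in MCA970, Pcdhgb1 in MCA943, Pcdhgb4 in MCA969 and Pcdhgb7 in MCA948.

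Among the gamma A and B members, Pcdhgb1 reached 44.0, 48.4, 49.6 and 35.1 CPM in the 4 MCA943 tumors. In MCA970 it ranged from 1.99 to 3.45 CPM (median 2.49), in MCA948 from 0.417 to 1.04 (0.753) and in MCA969 from 0.0619 to 0.487 (0.254), and the MCA972 tumors had 0.928, 1.44, 1.59 and 1.00 CPM. MCA943 therefore lay apart from every tumor of the other lines, by 10.2-fold between its lowest tumor and the highest tumor elsewhere. In edgeR's quasi-likelihood fit to all 30 tumors, the log2 difference between MCA943 and MCA970, the next line, was 4.12 with an SE of 0.25 (adjusted p = 2.66e-14).

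Pcdhgb2, from a nearby promoter, showed a different order. It ranged from 52.6 to 71.5 CPM (median 58.4) in MCA948 and from 17.6 to 24.7 (20.8) in MCA970, and it measured 31.3, 18.3, 17.01 and 22.7 CPM in the MCA972 tumors. In MCA969 it ranged from 0.588 to 1.75 CPM (0.942), and the MCA943 tumors had 1.32, 1.01, 1.13 and 1.37 CPM. The tumors of MCA948, MCA970 and MCA972 lay apart from those of MCA943 and MCA969, whereas MCA970 and MCA972 overlapped (log2 difference -0.11, SE 0.19, adjusted p = 0.647 in edgeR's test). MCA948 was higher than both by the same test, by 1.55 on the log2 scale against MCA970 (SE 0.17, adjusted p = 1.89e-09) and by 1.44 against MCA972 (SE 0.19, adjusted p = 1.64e-07).

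Pcdhgb7 ordered the lines with no overlap between any neighbours in the order. It ranged from 17.4 to 23.01 CPM (median 19.2) in MCA948, from 3.13 to 5.35 (4.34) in MCA970 and from 0.552 to 1.10 (0.883) in MCA969. The MCA972 tumors, which fell between the latter 2 lines, had 1.26, 1.93, 2.14 and 2.67 CPM, and the MCA943 tumors had 0.305, 0.296, 0.340 and 0.245 CPM. MCA948 exceeded MCA943 by 6.07 on the log2 scale (SE 0.23, adjusted p = 5.20e-19 in edgeR's test).

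Pcdhga5 was high in a pair of lines. It ranged from 8.93 to 14.5 CPM (median 10.3) in MCA948 and measured 10.48, 7.31, 7.79 and 7.68 CPM in the MCA972 tumors. The other lines reached at most 1.495 CPM, which was the level of MCA969 W-1D, while MCA969 W-2D had 0.0619 CPM, below 3 counts. MCA948 and MCA972 overlapped and their log2 difference of 0.38 (SE 0.34) did not pass edgeR's test (adjusted p = 0.332).

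Pcdhga7 and Pcdhga6, which are neighbours in the array, were both high in MCA943, MCA969 and MCA972. Pcdhga7 measured 11.5, 10.6, 12.6 and 13 CPM in MCA943 and 23.4, 14.7, 15.2 and 19.8 CPM in MCA972, and ranged from 13.7 to 20.5 CPM (median 18.3) in MCA969. In MCA948 and MCA970 it stayed between 0.101 and 0.863 CPM, so that the groups of lines lay apart by 12.2-fold, the widest gap among the 24 named members with a line mean of 1 CPM or more. Pcdhga6 had the same high lines at 5.30 to 12.6 CPM, against 0.261 to 1.58 CPM in the tumors of MCA948 and MCA970. The log2 difference of MCA969 over MCA970 was 5.58 for Pcdhga7 (SE 0.32, adjusted p = 1.34e-14) and 2.95 for Pcdhga6 (SE 0.25, adjusted p = 4.70e-11) by edgeR.

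The members at the far end of the A and B promoters were again combined differently. Pcdhga10 ranged from 21.3 to 28.3 CPM (median 24.96) in MCA970 and from 11 to 17.98 (13.4) in MCA948, and reached at most 3.21 CPM elsewhere, so that both lines lay apart from the rest. Pcdhga11 was high in MCA970 too, at 15.2 to 23.8 CPM (median 21.03), but its second high line was MCA969, at 11.1 to 17.7 CPM (14.1), and the other lines did not exceed 3.13 CPM. MCA969 and MCA948 thus differed in opposite directions at these nearby members. Pcdhga10 was lower in MCA969 than in MCA948 by 2.75 on the log2 scale (SE 0.19, adjusted p = 5.11e-13), and Pcdhga11 was higher by 3.22 (SE 0.21, adjusted p = 1.39e-13), both by edgeR.

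Pcdhga3, Pcdhgb4, Pcdhga9 and Pcdhga12 each had a leading line. Pcdhga3 ranged from 15.5 to 19.2 CPM (median 18.03) in MCA970, measured 4.54, 5.52, 6.04 and 4.31 CPM in MCA943 and 5.68, 4.91, 5.47 and 5.87 CPM in MCA972, and reached at most 1.01 CPM in the other lines. Pcdhgb4 ranged from 10.2 to 16.99 CPM (median 12.95) in MCA969 and reached 7.45 CPM in MCA970 W-1D, the highest tumor elsewhere. Pcdhga9 measured 10.4, 11.02, 11.2 and 12.6 CPM in MCA972 and at most 4.57 CPM elsewhere. Pcdhga12 was graded, with means of 10.6 CPM in MCA972, 5.51 in MCA970, 2.48 in MCA969, 1.46 in MCA948 and 0.727 in MCA943, where MCA972 and MCA970 lay apart but did not reach the log2 difference of 1 required for a call (-0.95 for MCA970 against MCA972, SE 0.34, adjusted p = 0.0228 by edgeR).

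**Figure D2:**
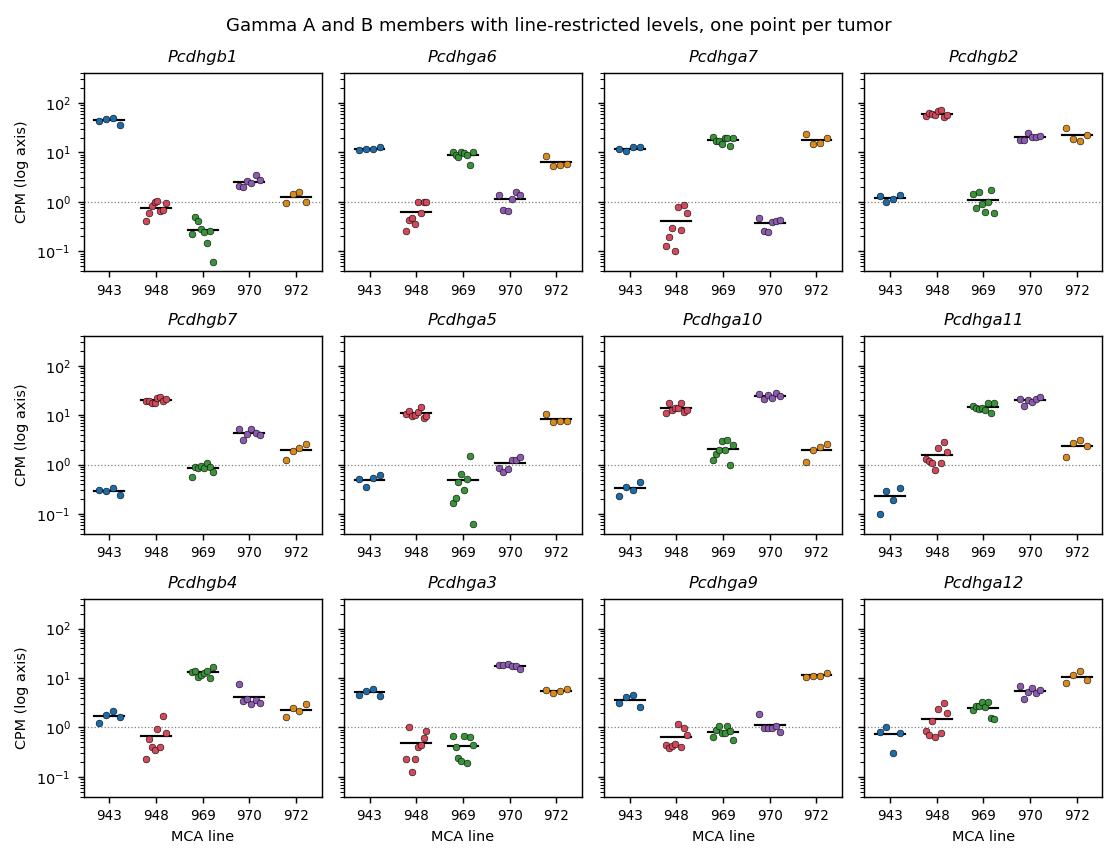
CPM on a log axis of 12 gamma A and B members, 1 panel each, with 1 point per tumor in each of the 5 MCA lines, a bar at the line mean and a dotted line at 1 CPM (values under 0.05 drawn at 0.05). Each member has high lines and low lines, and their combination differs from panel to panel: Pcdhgb1 is above 35 CPM in MCA943 alone, Pcdhga7 above 10 CPM in MCA943, MCA969 and MCA972.

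In contrast to these members, Pcdhgb6 and the gamma C-type members were present in every tumor. Pcdhgc3, which is known for broad expression, measured 275, 284, 287 and 249 CPM in the MCA943 tumors and 223, 207, 234 and 234 CPM in the MCA972 tumors. It ranged from 228 to 296 CPM (median 255) in MCA948, from 133 to 185 (159) in MCA969 and from 126 to 157 (144) in MCA970. Tumors of MCA943, MCA948 and MCA972 all lay above those of MCA969 and MCA970, but the largest difference, MCA943 over MCA970, was 0.94 on the log2 scale (SE 0.08, adjusted p = 5.18e-11 by edgeR) and stayed under the required 1. Of all counts on members, Pcdhgc3 took 59.5% ± 2.19 (SD, n = 8) in MCA948 and 37.6% ± 1.77 (n = 6) in MCA970, the highest and the lowest line.

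Pcdhgb6 was the common B-type member. It measured 41.8, 52.8, 52.0 and 41.0 CPM in MCA943 and 40.1, 34.6, 36.9 and 36.1 CPM in MCA972, and ranged from 26.8 to 34.4 CPM (median 31.4) in MCA970 and from 22.7 to 29.5 (27.5) in MCA948. The widest range, from 8.69 to 33.2 CPM (20.3), was in MCA969, where both extremes, W-2D and W-1D, were the tumors with the opposite class label, and the other 6 tumors ranged from 16.5 to 24.1 CPM. Only MCA943 over MCA969 was called for Pcdhgb6 (log2 difference 1.19, SE 0.17, adjusted p = 4.97e-07 by edgeR). Pcdhgc5 ranged from 5.45 CPM in MCA969 W-2D to 22.8 CPM in MCA970 W-1D and Pcdhgc4 from 1.49 to 5.34 CPM in the same tumors, and neither had a gap between high and low lines. Pcdhgb8, which lies between Pcdhga11 and Pcdhga12, did not exceed 0.417 CPM in any tumor.

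Levels of different genes were compared per kb of exon that no other gene shares on the same strand, which takes reads on shared exons as not counted. On this scale of CPM per kb, Pcdhgc3 led the gamma array in all 30 tumors, with line means from 42.1 in MCA970 to 81.1 in MCA943, and took 39.9% to 60.2% of the array's level. Among the A and B members Pcdhgb6 led in most tumors, in all 6 of MCA970, all 4 of MCA972, 7 of 8 of MCA969 and 3 of 4 of MCA943, whereas Pcdhgb2 led in all 8 tumors of MCA948 with 37.9% to 44.1% of the A and B level. The 5 leading A and B members were the same in all tumors of MCA943, MCA948, MCA969 and MCA970, and 4 of the 5 were shared in MCA972. They made up between 67.5% of the level, in an MCA972 tumor, and 96.0%, in an MCA948 tumor.

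The beta array was expressed mainly from its far end in every line but MCA969. All 9 members from Pcdhb14 to Pcdhb22 were expressed in every tumor of at least 1 line, but among the 13 from Pcdhb1 to Pcdhb13 only Pcdhb5 was, and 10 of these did not reach 1 CPM in any tumor. Summed over Pcdhb14 to Pcdhb22, the level was 75.6 ± 12.5 CPM (SD, n = 4) in MCA972, 63.4 ± 8.60 (n = 6) in MCA970 and 54.7 ± 4.45 (n = 4) in MCA943, against 17.7 ± 4.41 (n = 8) in MCA948 and 10.2 ± 3.23 (n = 8) in MCA969. The lowest tumor of the former lines had 48.5 CPM and the highest of the latter 23.04 CPM. For Pcdhb1 to Pcdhb13, the sums averaged from 3.46 CPM in MCA948 to 8.56 CPM in MCA969, where this was close to the far-end sum. Of Pcdhb14 to Pcdhb22, only 2 members were expressed in every tumor of MCA948 and 1 in every tumor of MCA969.

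Pcdhb21 and Pcdhb16 show the division of the lines. Pcdhb21 measured 5.96, 6.95, 6.498 and 5.29 CPM in MCA943 and 7.39, 9.29, 11.05 and 9.16 CPM in MCA972 and ranged from 7.98 to 10.99 CPM (median 8.11) in MCA970. It ranged from 0.0782 to 0.428 CPM (0.245) in MCA948 and from 0.144 to 0.490 (0.347) in MCA969, so that no tumor of these overlapped with the others. The log2 difference of MCA970 over MCA948 was 5.04 (SE 0.23, adjusted p = 2.66e-17 by edgeR). Pcdhb16 had the same high lines at 6.63 to 15.4 CPM, against 0.248 to 1.73 CPM in the low ones, and Pcdhb22 likewise at 6.88 to 14.3 against 0.339 to 1.37 CPM.

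Pcdhb17 was expressed in every tumor and ordered the lines differently. It ranged from 24.1 to 39.5 CPM (median 28.5) in MCA970, from 6.59 to 13.1 (9.61) in MCA948 and from 3.001 to 7.86 (4.21) in MCA969, and measured 13.4, 15.1, 15.6 and 12.97 CPM in MCA943 and 15.2, 20.8, 21.9 and 18.4 CPM in MCA972. MCA970 lay above all other tumors, and the other neighbours in the order overlapped. MCA970 exceeded MCA969 by 2.57 on the log2 scale (SE 0.19, adjusted p = 4.75e-12 by edgeR). Per kb it led the beta array in every tumor but those of MCA969, where Pcdhb5 led in 6 of 8.

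Pcdhb5, the only member of the near end found in every tumor, was higher in MCA969, at 3.14 to 5.74 CPM (median 4.86), than in MCA948, at 1.15 to 2.85 CPM (1.54), by 1.54 on the log2 scale (SE 0.21, adjusted p = 1.81e-07 by edgeR). The tumors of these lines lay apart, and the means of the other 3 lines lay between, with 3.96, 5.52, 3.59 and 2.35 CPM in MCA943, 1.80 to 4.25 (2.97) in MCA970 and 1.34, 1.81, 1.64 and 2.39 in MCA972. The far-end members Pcdhb14 and Pcdhb19 were highest in MCA972, where they measured 3.87, 5.18, 5.81 and 5.23 CPM and 5.43, 6.09, 8.88 and 7.65 CPM, respectively. No tumor elsewhere exceeded 1.58 CPM for Pcdhb14 or 4.31 CPM for Pcdhb19.

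**Figure D3:**
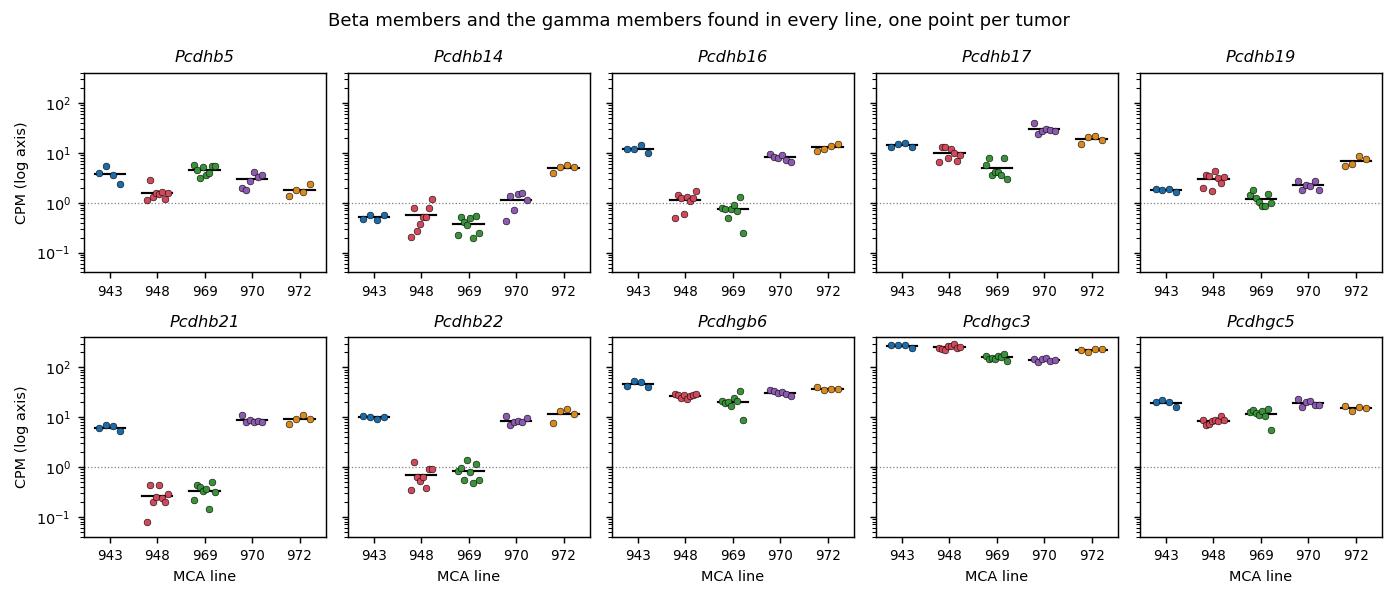
CPM on a log axis of 7 beta members and of Pcdhgb6, Pcdhgc3 and Pcdhgc5, which every line expressed, with 1 point per tumor, a bar at the line mean and a dotted line at 1 CPM. Pcdhb16, Pcdhb21 and Pcdhb22 split the lines into the same high and low groups, while the 3 gamma members differ less between lines.

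Summed over each array, the beta level divided the lines as its far end did, at 80.7 ± 12.7 CPM (SD, n = 4) in MCA972, 69.6 ± 8.32 (n = 6) in MCA970, 62.3 ± 5.73 (n = 4) in MCA943, 21.1 ± 5.50 (n = 8) in MCA948 and 18.8 ± 4.45 (n = 8) in MCA969. Gamma A and B levels summed to similar totals in 4 lines, from 137 ± 14.1 CPM (n = 4) in MCA943 to 143 ± 8.91 (n = 6) in MCA970, although the members behind those totals differed, and to 92.1 ± 6.31 (n = 8) in MCA969. Every MCA969 tumor lay below every tumor of the other lines in that sum, 99.4 CPM being its highest and 121 CPM the lowest elsewhere. Sums over the 12 type A and 7 type B members were not scaled to exon length. Mean type B exceeded mean type A in MCA948, at 109 against 31.8 CPM, and in MCA943, at 94.7 against 42.8 CPM. Mean type A was higher in MCA970, at 78.6 against 64.3 CPM, in MCA969, at 52.7 against 39.4 CPM, and in MCA972, at 73.9 against 67.2 CPM. In MCA970, MCA969 and MCA972 the ranges over tumors overlapped, as in MCA969, at 41.9 to 59.5 CPM for type A and 28.1 to 51.5 CPM for type B. Compared within each tumor, type A was higher in every tumor of MCA970 and MCA972. In MCA969 it was higher in every tumor but W-1D, which had 41.9 CPM of type A and 51.5 CPM of type B.

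**Figure D4:**
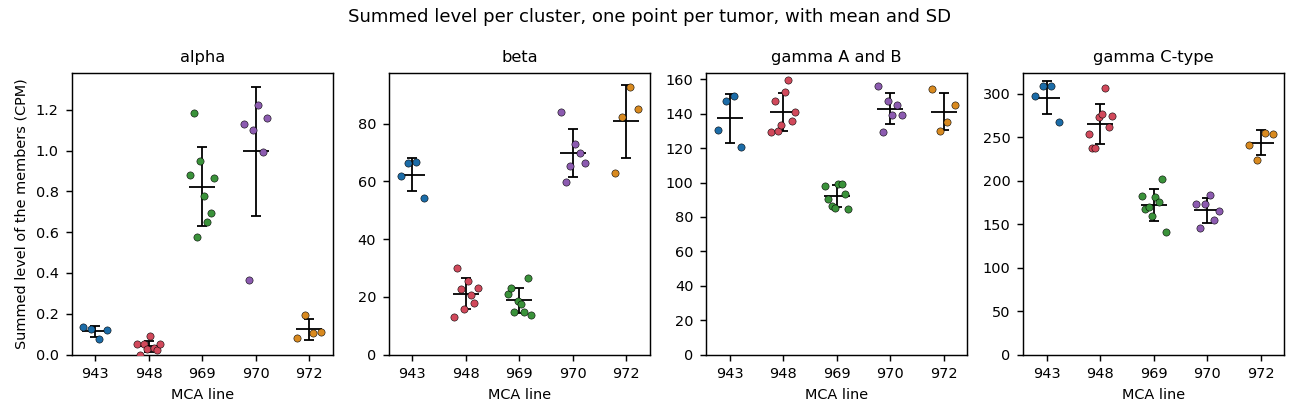
Summed CPM of the alpha, beta, gamma A and B, and gamma C-type members in each tumor (points) of the 5 MCA lines, with the mean and SD of each line as bars; the 4 panels have separate axes that start at 0. Beta sums are at least 54.4 CPM in MCA943, MCA970 and MCA972 and at most 30.01 CPM in MCA948 and MCA969, while alpha sums stay under 1.3 CPM.

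Markers of fibroblasts and of other cell types were set beside these sums. The 7 fibroblast markers summed on average to 52105 CPM in MCA943, 31824 in MCA972 and 26074 in MCA970, against 10458 in MCA969 and 9598 in MCA948. No tumor of the former lines lay below 20656 CPM and none of the latter above 12706 CPM. The fibroblast sums thus divided the lines as the beta sums did, and a link between them was not tested. A list of 6 neuron markers, chosen because neurons express the family strongly, summed to 63.7 CPM in MCA943, 48.0 in MCA970, 35.4 in MCA972, 25.3 in MCA969 and 21.5 in MCA948 on average, ranging from 8.23 to 71.8 CPM over the tumors, and so was higher in the lines with high beta sums. Most of it was Tubb3, a tubulin that other cells also make, at 61.5 CPM in MCA943. Map2 averaged 15.6 CPM in MCA970, 4.78 to 6.27 CPM in MCA948, MCA969 and MCA972 and 0.0609 CPM in MCA943. Snap25 averaged 4.91 CPM in MCA969, 2.496 in MCA970 and 0.275 in MCA972, was at 0.00583 CPM in MCA948 and had no count in MCA943. Syt1 averaged 2.12 CPM in MCA943, 2.01 in MCA970 and 0.187 to 0.579 in the other lines. Rbfox3 and Elavl3 had line means of at most 0.196 and 0.110 CPM. The markers thus did not share an order of lines, and 4 to 6 of the 6 exceeded 3 counts in a tumor of each line. Endothelial markers, 7 of 7 detected in each line, summed to 413 CPM in MCA970 and to 78.7 to 133 CPM in the other lines. Cdh5 made up 236 CPM of the MCA970 sum and stayed between 211 and 251 CPM in its tumors, while the other 6 markers summed to 46.4 to 252 CPM there, so Cdh5 did not vary with the others in that line. The part of these cells in the levels of members was not tested.

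Alpha members were nearly silent. All 14 together received 496 counts in the 30 tumors, of which Pcdha5 had 326 (65.7%), and 3 members had none. Pcdha5 ranged from 0.432 to 0.943 CPM (median 0.675) in MCA969 and from 0.257 to 0.783 CPM (0.619) in MCA970. In MCA972 it had no count in any tumor, in MCA943 the tumors had 0, 0.0247, 0 and 0.0245 CPM, and in MCA948 only 1 of 8 tumors had a count. MCA969 and MCA970 therefore lay apart from the other lines and were at least 8.51-fold and 7.60-fold higher than MCA972, taking 3 counts per library as the limit there. The log2 difference between them was 0.15 (SE 0.26, adjusted p = 0.646 by edgeR). No other alpha member, the C-type members Pcdhac1 and Pcdhac2 included, exceeded 8 counts or 0.244 CPM in a tumor.

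Members were mostly on the same side of a level in all tumors of a line. Over the 290 combinations of a member and a line, all tumors of the line lay on the same side of 1 CPM in 244 (84.1%), which comprised all 70 alpha, 92 of 110 beta (83.6%) and 82 of 110 gamma combinations (74.5%). Of the 244, 125 belong to the 25 members that reached 1 CPM in no tumor, whose agreement is fixed. Over the 33 members that reached it, 119 of 165 combinations (72.1%) were on the same side, 95 with all tumors expressed and 24 with none. The 46 mixed combinations had line means of 0.479 to 3.67 CPM (median 0.922), near the level that separates the sides. At 5 CPM, 276 combinations (95.2%) were on the same side, or 121 of 135 (89.6%) over the 27 members that reached it. The set of gamma A and B members at 5 CPM was the same in all 8 tumors of MCA948 and in 6 of 8 of MCA969, where Pcdhgb5 was added in a-1G and W-1D. MCA970 had 4 sets, of which the commonest held 3 of 6 tumors, MCA972 had 3 and MCA943 had 4 sets in 4 tumors, as Pcdhga1 and Pcdhga3 lay close to 5 CPM. None of the 352 pairs of tumors from different lines had the same set.

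As a description of likeness, Pearson's correlation of log2 CPM over the 19 gamma A and B members was computed for each pair of tumors, which share genes of 1 locus and, within a line, their parental cells. Pairs from the same line had a median of 0.975 (83 pairs, range 0.848 to 0.994) and pairs from different lines a median of 0.291 (352 pairs, -0.07 to 0.728), so that the ranges did not overlap. The most alike lines were MCA948 and MCA970, with a median of 0.629, and the least alike MCA943 and MCA948, with -0.0048. Over the 22 beta members the medians were 0.954 within and 0.780 between lines, and the ranges overlapped.

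The widest ranges within lines are given for members with a line mean of 1 CPM or more, as ratios between tumors were larger for some members below that, such as Pcdhga5 in MCA969. In MCA969, Pcdhgb5 ranged from 0.928 CPM in W-2D to 5.74 CPM in a-1G. In MCA948, Pcdhga12 ranged from 0.633 to 3.15 CPM, and in MCA970, Pcdhb14 ranged from 0.435 to 1.58 CPM. The widest in the lines with 4 tumors were Pcdhb5 in MCA943, from 2.35 to 5.52 CPM, and Pcdhgb5 in MCA972, from 0.982 to 3.06 CPM. MCA970 W-1D was the highest of its line for 14 of the 29 members with a line mean of 1 CPM or more, among them Pcdhb17, Pcdhgb4 and Pcdhgb6, and it was the tumor with the highest leukocyte marker sum. MCA969 W-2D was the lowest of its line for 8 of 17 such members, Pcdhgc3 and Pcdhgb6 among them, but the highest for Pcdhga6 and Pcdhgb4. Its neuron marker sum of 8.23 CPM was the lowest of all tumors.

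The members outside the shared set of a line were not at 0. In MCA948 the 14 gamma A and B members below 5 CPM summed to 5.45 CPM in a-2G, 5.97 in W-2D, 6.61 in W-1D, 6.76 in W-2G, 7.43 in a-R, 11.8 in a-2D, 12.9 in W-1G and 15.4 in a-1G, which was 4.20% to 11.3% of the A and B sum. The endothelial markers summed in the same order of tumors to 40.7, 55.5, 22.8, 20.04, 358, 237, 106 and 196 CPM. The 3 tumors with the highest sums of these members were among the 4 with the highest endothelial sums, and a-R, with the highest endothelial sum, was not among them. The other lines went both ways for members outside their shared sets. In MCA972, a-R had both the highest sum of such members, 31.1 CPM, and the highest endothelial sum, 126 CPM. In MCA969, a-1G had the highest sum of such members, 21.1 CPM, and an endothelial sum of 191 CPM. In MCA970, W-1D had the highest, 35.6 CPM, with an endothelial sum of 296 CPM against 503 CPM in a-2G. In MCA943, a-R had the lowest, 19.2 CPM, with the highest endothelial sum, 127 CPM. The part of endothelial cells was not tested.

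The spread between lines was set against that within lines for the 41 members that passed the filter on low counts (1 alpha, 19 beta and 21 gamma). A member that passed through the line where it is high had to differ, so these values describe the members and support nothing further. On the log2(CPM + 0.1) scale, the SD among tumors of a line had a median of 0.42 for the members against 0.26 for all 16862 genes tested, and the SD among the 5 line means 1.13 against 0.45. For gamma A and B members a median of 93.4% of the variance lay between lines, for beta members 78.6% and for all genes 75.1%. Pcdhgb7 had the highest share, 98.6%, and Pcdhb9 the lowest, 28.6%. Pcdhgc3 had the smallest SD within lines of all members, 0.12.

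**Figure D5:**
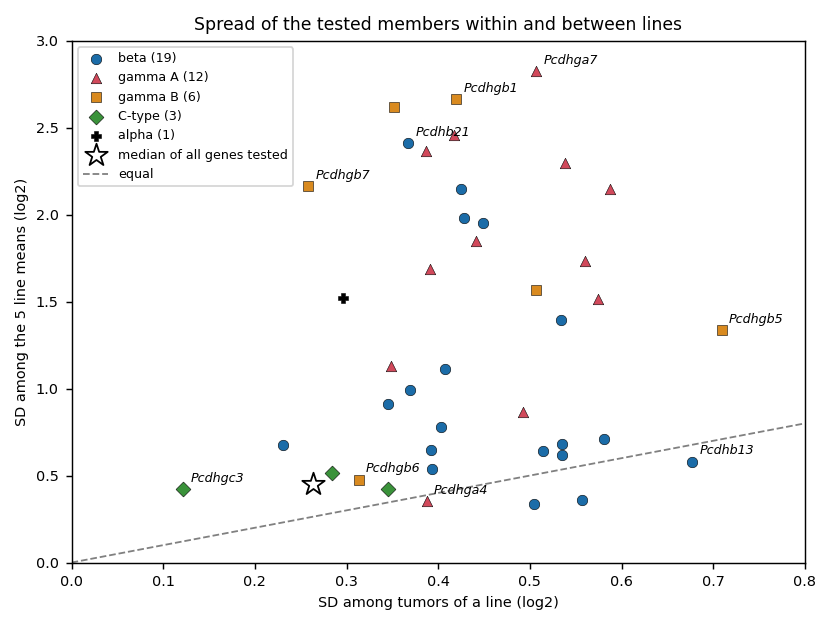
SD among the 5 line means against SD among tumors of a line, both of log2(CPM + 0.1), for the 41 members tested (marked by type) and the median of all 16862 genes tested (star); the dashed line marks equal SDs. Most gamma A and B members and several beta members lie well above the line, Pcdhgc3 lies at the left and Pcdhga4, Pcdhb9, Pcdhb11 and Pcdhb13 lie below the line.

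Calls required a log2 difference of at least 1 and an edgeR p under 0.05 after Benjamini-Hochberg adjustment over all genes tested. Of all genes, 58.0% were called for any difference among the 5 lines, and of the 41 members tested 37 were (90.2%), under the limit of the filter given above. The exceptions were Pcdhb9, Pcdhga4, Pcdhgc3 and Pcdhgc4, whose largest differences between lines were 0.79, 0.95, 0.94 and 0.98 on the log2 scale. Of these, only Pcdhb9 failed edgeR's F-test (adjusted p = 0.110). Pcdhga4, Pcdhgc3 and Pcdhgc4 passed it (adjusted p = 0.00643, 4.76e-13 and 0.00019) and missed only the required log2 difference. Pcdhgc4 lay close to the threshold and was called under 11 of 41 alternatives, among them DESeq2, the model with the series and the fits without any of 6 single tumors (MCA943 a-R, MCA970 W-2D, W-R or a-2G, MCA972 a-1 or a-1G). These p-values measure the spread between tumors of a line, each line being derived from 1 tumor, and so say nothing of the spread among lines of a kind.

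In the comparisons of MCA943, 25 members were called against MCA948, where 29.0% of all genes were, and 19 of them were higher in MCA943. Against MCA969 20 members were called (27.0% of genes), against MCA970 22 (27.3%) and against MCA972 19 (25.6%), with 15 and 14 of them lower in MCA943 in the last 2 comparisons. MCA948 differed from MCA969 at 20 members (20.8% of genes), from MCA970 at 25 (29.4%) and from MCA972 at 24 (26.8%), and 22 and 21 of these were lower in MCA948. MCA969 differed from MCA970 at 25 members (21.4% of genes) and from MCA972 at 24 (20.6%), 17 of them lower in MCA969 in either case. MCA970 and MCA972 differed at 17 members (17.6% of genes), 8 of them higher in MCA970. Of the 41 tested, 41.5% to 61.0% were thus called in a comparison. These comparisons share lines and are not independent of each other.

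The study compared the 2 non-sensitive with the 3 sensitive lines. No member was higher in both non-sensitive lines than in each sensitive line, as 0.652% of all genes were, and 3 members, Pcdhgb2, Pcdhga5 and Pcdhgb7, were lower in all 6 comparisons, as 0.225% of all genes were. The study lists these 3 among its genes, so they are not independent evidence. For Pcdhgb2 and Pcdhgb7 no tumor of the classes overlapped, the highest non-sensitive tumor having 1.75 and 1.10 CPM and the lowest sensitive tumor 17.01 and 1.26 CPM. Pcdhga5 overlapped, since MCA970 had 0.699 to 1.45 CPM and MCA969 up to 1.495 CPM. Pcdhga5 did not keep its call with the library-number series in the model or with the title code as a block. It also lost the call at an adjusted p under 0.01 or a log2 difference of 2, or without any of 5 single tumors (MCA943 W-2G or a-1D, MCA969 W-2G or W-2D, MCA970 a-2G).

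With the line as the unit, the array sums did not separate the classes. The mean log2 sum of the non-sensitive lines differed from that of the sensitive lines by 0.47 for alpha, -0.52 for beta and -0.11 for gamma (two-sided exact permutation p = 0.8, 0.5 and 0.7, each 0.8 after adjustment over the 3 sums). With 2 against 3 lines the smallest p possible is 0.1. In each class there was a line with a high and a line with a low beta sum.

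Library numbers fall in 3 series, which hold MCA969 with MCA972, MCA948 and MCA969 with MCA970, and MCA943 with MCA948. MCA943, MCA970 and MCA972 each lie in 1 series, so that series and line cannot be told apart for them alone. The model with the series as a term called 36 members, 34 of them among the 37. Its series term rests only on MCA948 and MCA969, the lines with tumors in 2 series. In MCA969 it rests on W-1D and W-2D, the tumors with the opposite class label, against the rest. Within MCA948, 1.81% of all genes were called between 2 tumors of the one series and 6 of the other. The 2, a-2G and a-R, carry the title letter a and most of the 6 carry W, so series and letter are partly tied. None of 35 members tested was called. An unadjusted edgeR p under 0.05 was found for 31.1% of all genes and 5.71% of these members (Pcdhgb1 and Pcdhga6). Within MCA969, W-1D and W-2D carry the letter W and most of the other 6 tumors carry a. Between W-1D with W-2D and the other 6, 0.0374% of all genes and none of 39 members were called. There, 13.9% of all genes and 2.56% of the members (Pcdhga12) had an unadjusted edgeR p under 0.05. Without W-1D, which leaves W-2D alone against 6 tumors and assumes that it varies like them, 5.95% of all genes were called (991 of 16646), and 5 members were called lower in W-2D: Pcdhb7, Pcdhb20, Pcdhgb5, Pcdhgb6 and Pcdhgc5.

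Of 26 genes listed for promoter choice and silencing, 5 were called across the lines (19.2%), against 58.0% of all genes, and the median of their largest log2 differences was 0.70 against 1.19 over all genes. The count rests on the required log2 difference of 1, as 24 regulators were called without it. Ctcf, whose protein bridges promoters and enhancers of the arrays, had line means of 90.5 to 106 CPM. Smchd1, a repressor of clustered protocadherins, had 178 ± 38.9 CPM (SD, n = 8) in MCA948, 145 ± 19.1 (n = 4) in MCA972, 127 ± 11.6 (n = 8) in MCA969, 100 ± 6.73 (n = 6) in MCA970 and 94.5 ± 6.33 (n = 4) in MCA943, a largest log2 difference of 0.91 that did not reach the required 1. Dnmt3b, the methyltransferase that sets methylation at these promoters, stayed between 1.97 and 4.63 CPM in all tumors.

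Among the called regulators, Tet1, which oxidises methylcytosine, had 10.1 ± 2.43 CPM (n = 8) in MCA969 and 8.86 ± 2.42 (n = 4) in MCA972 against 1.46 ± 0.51 (n = 8) in MCA948, with MCA943 and MCA970 between (5.43 and 2.32 CPM) and a largest log2 difference of 2.79 (edgeR adjusted p across lines = 5.66e-12). Tet2, of the same family, was highest in MCA970, at 116 ± 15.3 CPM (n = 6), and lowest in MCA943, at 34.4 ± 4.62 (n = 4). Hells, a helicase needed for DNA methylation, was highest in MCA948, at 175 ± 38.2 CPM (n = 8), and lowest in MCA943, at 53.8 ± 5.62 (n = 4). Setdb1 and Dnmt1 were the other 2 called, and are named because the count is small.

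Of 22 genes for proteins that act with protocadherins, 10 were called (45.5% against 58.0% of all genes), with a median largest difference of 0.90 on the log2 scale. Stmn2, a microtubule regulator that binds a gamma B protein, differed most, with 487 ± 47.2 CPM (SD, n = 4) in MCA943, 237 ± 56.4 (n = 6) in MCA970, 28.0 ± 42.9 (n = 8) in MCA969, 7.98 ± 5.25 (n = 4) in MCA972 and 2.86 ± 1.64 (n = 8) in MCA948. MCA969 W-1D, at 132 CPM, carried the mean of its line, which was 13.2 ± 9.34 CPM (n = 7) without it. Ptk2b, a focal adhesion kinase that the gamma constant part inhibits, had 78.2 ± 10.3 CPM (n = 6) in MCA970 and 16.4 ± 4.47 (n = 8) in MCA948. Ret, a receptor kinase that associates with alpha and gamma proteins, had 3.14 ± 0.39 CPM (n = 6) in MCA970, 2.44 ± 0.734 (n = 4) in MCA972 and 0.736 to 0.934 CPM on average in the other lines.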

How the data were processed

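The authors aligned reads to GRCm38 with STAR 2.5.3a and counted them per gene with featureCounts (1.5.2 in the submitters' processing notes, which also name Picard). The deposited values are raw counts without normalization, and their column names say that reads were deduplicated by molecular identifier; strand and overlap options are not given in the sources used here. The alpha and gamma arrays share constant exons, and how reads on these were counted is unknown here.

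Members and gene lists were chosen with earlier results of these data known. Genes were named with GENCODE release M21, and Pcdha10 with RefSeq. Counts were scaled by TMM and filtered with filterByExpr by line, which kept 16862 genes. edgeR 4.0.16 (R 4.3.3) fitted all 30 tumors in a robust quasi-likelihood model, in which the line was the factor. Totals of 27745104 to 46537062 counts per tumor set the precision; where no read was counted, up to 3 counts remain possible. Levels per kb used exon bases unshared on the same strand, because Pcdhga10 has none unshared on both strands. The 29 members named are those with a line mean of 5 CPM or more, leading members, C-type members, the 3 genes the study lists and the member of each line with the widest range; regulators and partners are the 3 with the largest difference in each list, with Smchd1, Ctcf and Dnmt3b. Genes outside this rule are named where a count was small, after their values were seen. Alternatives were DESeq2 1.42.0, limma-voom (limma 3.58.1), other scalings, filters, thresholds and lengths. They also included the library-number series, the title code as a block, and leaving out each tumor. The level of 5 CPM, the exon lengths free of both strands and leaving out both MCA969 tumors of the other class label were added after the data were seen. The edgeR fit was also run on simulated counts in which genes were changed in MCA948 alone, a simpler setting than these data.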

Additional observations from a re-analysis of the deposited data

Results flagged for a closer look

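In 9 of 108 groups of 4 to 8 tumors, the highest or lowest tumor stood apart from the others of its line by Dixon's criterion, where chance gives about 1 in 20 (5.4 groups). MCA970 W-1D gave 5 of them: Pcdhb17 at 39.5 CPM (24.1 to 29.7 in the other tumors of the line), Pcdhb21 at 10.99 CPM (7.98 to 8.64), Pcdhgb4 at 7.45 CPM (3.05 to 3.85), Pcdhgb5 at 2.18 CPM (0.886 to 1.31) and Pcdhga9 at 1.83 CPM (0.798 to 1.06). That tumor also had the highest leukocyte marker sum of all tumors, 290 CPM. The summed alpha level was low in MCA970 W-2D, at 0.368 CPM against 0.993 to 1.23 CPM. In MCA969 W-2D, Pcdhgc5 was low at 5.45 CPM (10.7 to 14.3). In MCA972 a-1, Pcdhga5 was high at 10.48 CPM (7.31 to 7.79), and in MCA948 a-R, Pcdhb5 was high at 2.85 CPM (1.15 to 1.62). The part of other cell types in these values was not tested.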

How the results depend on the processing

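Of 865 alternative values of 27 results, 846 stayed within 1.5 times the reported count or kept their sign. The number of members called across the lines was 27 to 45 over the settings and 36 to 39 on leaving out a tumor, and the 37 members were among the 38 that DESeq2 called and the 37 that limma-voom called. A log2 difference of at least 2 lowered the calls to 13 for MCA943 against MCA970, 10 for MCA943 against MCA972, 12 for MCA948 against MCA969, 12 for MCA948 against MCA970, 13 for MCA969 against MCA970 and 9 for MCA970 against MCA972, left 1 member (Pcdhgb2) lower in all 6 comparisons, and left 1 regulator and 4 partners; with no threshold on the difference, 24 regulators and 22 partners were called. A filter at a mean of 1 CPM, which tests fewer members, gave 13 for MCA948 against MCA969. The title code as a replicate block gave 11 for MCA970 against MCA972. It left Pcdhgb2 and Pcdhgb7 but not Pcdhga5 lower in all 6 comparisons, and changed no other count of calls by over 1.5 times. Between lines, deviations of tumors with the same code from their line means had a median correlation of 0.022 (29 pairs, -0.447 to 0.420). For tumors with other codes it was -0.0077 (323 pairs, -0.426 to 0.476). Whether the codes pair tumors, and the cause of the changed calls, was not tested. At 5 CPM, 10 members were shared by the tumors of MCA943, 7 in MCA969, 11 in MCA970 and 14 in MCA972, and at 0.5 CPM 20 in MCA969. Between series within MCA969, 0 to 5 members were called on leaving out a tumor, 5 only without W-1D. Depth limits the alpha members, whose levels lay mostly at or below 3 counts. Each line being 1 cell line, no setting bears on other tumors of its kind.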
